A study of Mus musculus with 6 samples.

Results

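The 10 genes described here are Il2, which encodes the cytokine interleukin-2, the 3 chains of its receptor (Il2ra, Il2rb and Il2rg), the transcription factors Stat5a and Stat5b, and 4 genes of the SOCS family that damp cytokine signals (Cish, Socs1, Socs2 and Socs3). They were chosen by name, as the members of 1 signalling pathway, after the differences between 2-deoxyglucose and vehicle in these same libraries were known. The levels and differences of the 10 genes are therefore a description, with no p-value for a gene. How many of them were past a threshold is given beside the share of all loci and supports nothing. Each gene matched 1 locus with 1 gene symbol, so the set holds 10 of the 23203 loci of the deposited table.

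The study grew naive mouse CD4 T cells into Th17 cells, the helper T cells that make IL-17, in 250 µM 2-deoxyglucose (2DG), which resembles glucose and is used as a glycolysis inhibitor, or in DMSO vehicle. Both groups received the same mix for 48 h: anti-CD3e bound to the plate at 10 µg/ml, anti-CD28 at 1 µg/ml, IL-6 at 20 ng/ml, TGFb1 at 2.5 ng/ml and IL-23 at 10 ng/ml. No IL-2 is named among the added cytokines. RNA was sequenced from 3 libraries with 2DG and 3 with vehicle, whose titles carry the numbers 17, 42 and 43 in both groups (replicates 1, 2 and 3 below), and no mouse strain, age or sex is given with them. Nothing in the labels says that these were separate animals or separate cultures. SDs, SEs and p-values thus describe how these libraries varied, and that variation may be technical.

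Interleukin-2 is made by T cells soon after they are stimulated through the T cell receptor and CD28, and it acts back on the same cells and on their neighbours. It binds a receptor of the alpha chain (Il2ra, CD25), which raises affinity, the beta chain (Il2rb) and the common gamma chain (Il2rg), which carry the signal through the kinases JAK1 and JAK3 to STAT5A and STAT5B. Activated STAT5 enters the nucleus and switches on Il2ra. It also switches on Cish, Socs1, Socs2 and Socs3, whose products limit further signalling. In mouse helper T cells activated STAT5 is known to restrain the Th17 programme. Socs3 is also a well known target of STAT3 downstream of IL-6 and IL-23, which were both in the culture mix.

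Values are FPKM (fragments per kilobase, scaled to the mapped fragments of the library), a unit that corrects for transcript length and lets genes be set side by side. Of the 23203 loci, 10228 reached a mean of 1 FPKM over the 6 libraries and were tested, among them all 10 genes of the pathway. Read counts were not among the files, so depth is unknown, and only a rough relative depth of 0.595 to 1.11 with 2DG and 0.42 to 1 with vehicle could be read from the low values. Libraries of the same group correlated at r of 0.984 to 0.991 and libraries of different groups at r of 0.971 to 0.983, over log2 values without small RNA genes. Of 9 helper T cell markers, 8 were in the table, and their summed level was 2647 to 3308 FPKM with 2DG and 2029 to 2249 FPKM with vehicle. Most of that sum was Il17f, which averaged 1958 FPKM with 2DG and 1501 FPKM with vehicle, and Il17a, which is described with the pathway genes. Cd4 itself, the coreceptor that defines these cells, averaged 94.1 ± 10.3 FPKM with 2DG and 102 ± 8.82 FPKM with vehicle (SD, n = 3 each). The summed level of 15 markers of other cell types was 4.29 to 9.35 FPKM with 2DG and 3.52 to 7.10 FPKM with vehicle. Of these 15 markers, 13 stayed under 1 FPKM in every library, Klrb1c, Hba-a1 and Hbb-bs were listed at 0 in all 6, and Cd8b1 had the highest single value, 4.92 FPKM.

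The promoters of 3 of the genes are shown as examples of the ligand, a receptor chain and a feedback gene, picked with their values known, since their levels with 2DG and with vehicle did not overlap. Each is the reference sequence before the RefSeq transcription start in build GRCm38.p6, at chr3:37125960-37126204 on the minus strand for Il2, chr2:11642542-11642791 on the plus strand for Il2ra and chr16:10785537-10785786 on the minus strand for Socs1. Capitals mark GGAAA, the core letters bound by NFAT factors, and TATAAA in Il2, GGANNNNCC, a loose form of the NF-kappaB site, in Il2ra, and GAAANNGAA, a loose form of the site of interferon regulatory factors, in Socs1. Both strands were searched, so TTTCC marks GGAAA on the other strand.
Il2: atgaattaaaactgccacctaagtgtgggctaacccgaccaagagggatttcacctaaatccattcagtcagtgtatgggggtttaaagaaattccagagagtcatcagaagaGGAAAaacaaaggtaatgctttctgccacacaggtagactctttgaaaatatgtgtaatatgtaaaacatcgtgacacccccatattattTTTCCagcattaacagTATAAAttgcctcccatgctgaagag
Il2ra: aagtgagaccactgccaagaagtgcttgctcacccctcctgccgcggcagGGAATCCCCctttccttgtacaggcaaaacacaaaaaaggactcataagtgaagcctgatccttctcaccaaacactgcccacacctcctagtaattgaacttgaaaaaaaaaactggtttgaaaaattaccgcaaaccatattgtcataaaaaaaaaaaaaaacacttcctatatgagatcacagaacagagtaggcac
Socs1: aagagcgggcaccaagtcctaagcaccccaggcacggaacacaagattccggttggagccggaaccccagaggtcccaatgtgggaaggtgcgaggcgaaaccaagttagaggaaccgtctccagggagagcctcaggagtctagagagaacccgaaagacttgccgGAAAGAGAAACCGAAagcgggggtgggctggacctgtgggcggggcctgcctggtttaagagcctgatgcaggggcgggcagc

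In the 245 bases of the Il2 promoter shown, which leave out 5 next to the start that GENCODE places in an exon, GGAAA began 137 bases before the start, its reverse form began 47 bases before it and TATAAA began 31 bases before it. In the 250 bases of the Il2ra promoter, 1 match to GGANNNNCC, on the plus strand, began 200 bases before the start. In Socs1, 2 matches to GAAANNGAA began 83 and 77 bases before the start and overlapped each other, and the first overlapped a GGAAA that began 84 bases before it. GAAANNGAA was present in 7.13% of 32851 mouse promoters searched over the same 250 bases, and at least 2 matches were present in 0.469%. GGAAA was present in 55.6% of them, GGANNNNCC in 42.3% and TATAAA in 12.4%. TTCNNNGAA, the palindrome bound by STAT factors, was present in 7.02% of all promoters and in 1 of the 10 promoters listed for 8 of the genes, that of Socs3, where TTCTTAGAA began 154 bases before the start. The window of Cish lay wholly in an exon of the GENCODE annotation, and those of Stat5a, Stat5b and Socs3 in part. Il2rb and Socs2 had no entry in the promoter table. A match is a description of letters, not of binding, and these windows leave out enhancers.

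With 2DG the ligand transcript was higher and the transcripts of 1 receptor chain and all 4 SOCS genes were lower, without overlap between the groups, while the other receptor chains and both STAT5 genes overlapped. As RNA came from whole cultures, fewer cells of a type and less RNA per cell cannot be told apart. Over all tested loci, the groups did not overlap for 1215 loci higher with 2DG (11.9%) and for 1210 loci lower with 2DG (11.8%). By limma, with p-values adjusted by Benjamini-Hochberg over all loci and a threshold of 0.05, 156 loci were higher with 2DG (1.53%) and 122 were lower (1.19%). Of the 10 genes, 0 were past this threshold as higher and 2, Il2ra and Socs1, as lower, and at unadjusted p under 0.05 the counts were 1 higher and 5 lower, beside 928 loci higher (9.07%) and 902 lower (8.82%) of all tested. The count of 2 became 0 without 2DG replicate 1, and 1 without 2DG replicate 3, vehicle replicate 2 or vehicle replicate 3. It stayed at 2 without 2DG replicate 2, with Socs1 and Cish, and without vehicle replicate 1, with Socs1 and Socs2. Il2ra was not past the threshold when any 1 library was left out. Since the 10 genes were chosen with this comparison known, nothing is read from these shares. The median difference of the 10 genes was -0.37 on the log2(FPKM + 1) scale, beside -0.01 for all tested loci.

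**Figure D1:**
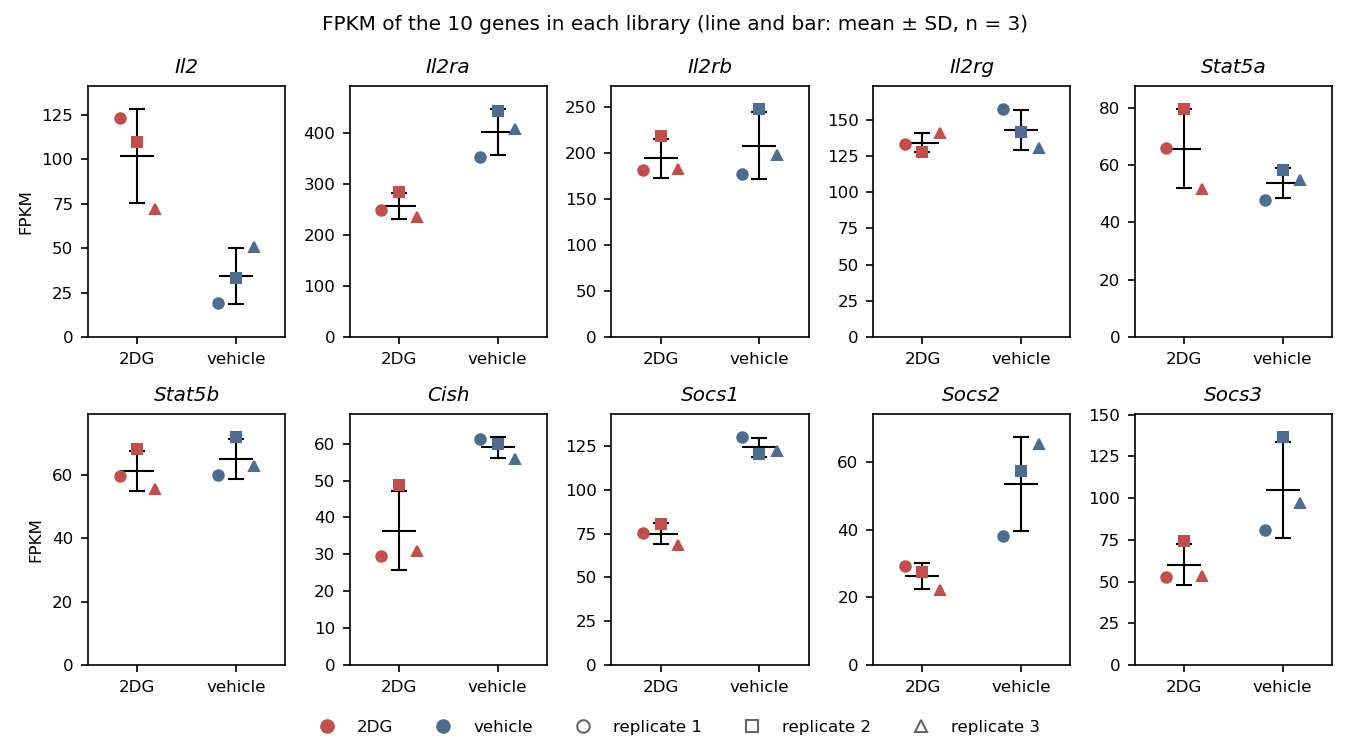
FPKM of the 10 genes in each of the 6 libraries, 2DG at the left and vehicle at the right of each panel, with marker shape for the replicate number and a line and bar for the mean ± SD (n = 3). Each vertical axis starts at 0 and has its own scale. Il2 lies higher with 2DG, Il2ra, Cish, Socs1, Socs2 and Socs3 lie lower with 2DG, and Il2rb, Il2rg, Stat5a and Stat5b overlap.

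Il2, the ligand, was higher with 2DG. It is located on chromosome 3 from 37120523 to 37125959 on the minus strand (GRCm38), has 4 exons and overlaps Adad1 on the other strand. Of the 50-base stretches of its transcript, 12.6% also occur in Ntan1. Il2 was at 123, 110 and 72.3 FPKM in the 2DG libraries and at 19.2, 33.0 and 50.8 FPKM in the vehicle libraries. The lowest 2DG library, replicate 3, was thus above the highest vehicle library, also replicate 3, and these were the 2 libraries closest to the other group. The mean was 102 ± 26.5 FPKM with 2DG and 34.4 ± 15.8 FPKM with vehicle (SD, n = 3 each), a 2.96-fold difference of means and 1.61 ± 0.35 on the log2 scale (difference ± SE). Of the 10 genes Il2 had the widest spread between libraries relative to its mean in the vehicle group.

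Il2 also changed its place among the genes. With vehicle it was the lowest of the 10 in all 3 libraries, below Socs2, while with 2DG it was the fourth highest in all 3, directly below the receptor chains. Its mean level stood at percentile 91.8 of the tested loci with 2DG and at percentile 74.2 with vehicle. The ratio of Il2 to Il2ra FPKM within a library was 0.493, 0.386 and 0.308 with 2DG and 0.0544, 0.0744 and 0.124 with vehicle. These ratios could not overlap, since Il2 was higher and Il2ra lower in every 2DG library than in any vehicle library.

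Il21 lies 96.8 kb from Il2 on chromosome 3, with no coding gene between them, and encodes a cytokine that signals through the same gamma chain. It was at 174, 186 and 171 FPKM with 2DG and at 163, 147 and 167 FPKM with vehicle, a difference of 0.15 ± 0.08 on the log2 scale that did not pass the test (limma, Benjamini-Hochberg adjusted p = 0.394). The groups did not overlap for Il21, and its difference stands beside 1.61 for Il2.

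Among the receptor chains, only the alpha chain gave groups without overlap. Il2ra lies on chromosome 2 from 11642807 to 11693193 on the plus strand and has 8 exons. It was at 250.1, 285 and 235 FPKM in the 2DG libraries and at 354, 444 and 409 FPKM in the vehicle libraries. All 3 2DG libraries were below the lowest vehicle library. Means were 257 ± 25.4 FPKM with 2DG and 402 ± 45.5 FPKM with vehicle (SD, n = 3 each), which is 1.57-fold lower with 2DG and a log2 difference of -0.64 ± 0.12. When each library was left out in turn, the log2 difference of Il2ra lay between -0.73 and -0.57.

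Il2rb, the signalling chain shared with the IL-15 receptor, is on chromosome 15 from 78479256 to 78495271 on the minus strand, with 10 exons. It was at 182, 219 and 183 FPKM with 2DG and at 177, 248 and 199 FPKM with vehicle, and the groups overlapped. The means of 195 ± 20.9 FPKM with 2DG and 208 ± 36.5 FPKM with vehicle differed by less than either SD, and the log2 difference was -0.09 ± 0.14.

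Il2rg, the gamma chain shared by the receptors of IL-2, IL-4, IL-7, IL-9, IL-15 and IL-21, is on chromosome X from 101264378 to 101268255 on the minus strand, with 8 exons. It was at 133, 128 and 141 FPKM with 2DG and at 157, 141 and 130.2 FPKM with vehicle, so here too the groups overlapped. The mean was 134 ± 6.50 FPKM with 2DG and 143 ± 13.7 FPKM with vehicle, with a log2 difference of -0.09 ± 0.09. The value of Il2rg is less certain than the others, because 42.01% of the 50-base stretches of its transcript also occur in other genes, all of them in Gm20489, an annotated gene on the same strand that overlaps it.

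The chains therefore differed from each other in how they stood between the groups. The ratio of Il2ra to Il2rb FPKM was 1.38, 1.301 and 1.28 with 2DG and 1.99, 1.79 and 2.06 with vehicle, without overlap. The ratio of Il2ra to Il2rg was 1.88, 2.22 and 1.67 with 2DG and 2.25, 3.15 and 3.14 with vehicle, also without overlap, although 2DG replicate 2 and vehicle replicate 1 were close. The ratio of Il2rb to Il2rg averaged 1.46 ± 0.22 with 2DG and 1.47 ± 0.32 with vehicle (SD, n = 3 each) and overlapped. In every one of the 6 libraries the order was the same, Il2ra above Il2rb and Il2rb above Il2rg. Summed over the 3 chains the level was 565, 631 and 559 FPKM with 2DG and 689, 834 and 738 FPKM with vehicle.

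**Figure D2:**
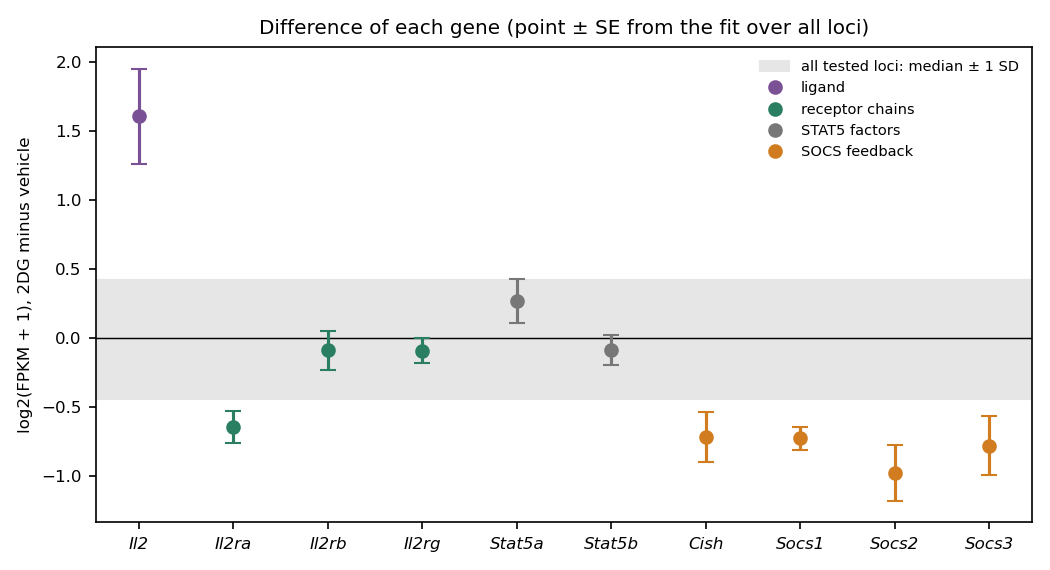
Difference between 2DG and vehicle for each of the 10 genes, as 2DG minus vehicle on the log2(FPKM + 1) scale, with the SE of the fit over all loci (n = 3 libraries in each group) and colour for the role in the pathway. The grey band is the median of all tested loci ± 1 SD (0.43) of their differences. Il2 lies above the band at 1.61, Il2ra and the 4 SOCS genes lie below it at -0.98 to -0.64, and the other chains and STAT5 genes lie within it.

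The STAT5 genes overlapped between the groups. Stat5a and Stat5b are neighbours on chromosome 11, transcribed away from each other with 8.6 kb between them, and encode closely related factors. Stat5a, from 100859351 to 100885169 on the plus strand, was at 66.0, 79.5 and 51.7 FPKM with 2DG and at 47.9, 58.3 and 54.9 FPKM with vehicle. The 2DG libraries included both the highest and the second lowest value, and the log2 difference was 0.27 ± 0.16. Stat5b, from 100780731 to 100850724 on the minus strand, was at 59.7, 68.3 and 55.6 FPKM with 2DG and at 59.9, 72.0 and 62.9 FPKM with vehicle. Its means, 61.2 ± 6.45 FPKM with 2DG and 64.9 ± 6.31 FPKM with vehicle, differed by less than their SDs, with a log2 difference of -0.09 ± 0.11. The transcripts share 608 stretches of 50 bases, 16.44% of the stretches of Stat5a being shared with some other gene and 11.77% of those of Stat5b, so part of their reads could be split between them, and Stat5a overlaps the end of Stat3 on the other strand.

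The ratio of the STAT5 genes within a library separated the groups, which neither gene did alone, but it was 1 of several ratios formed and was not tested. The ratio of Stat5a to Stat5b FPKM was 1.11, 1.16 and 0.930 with 2DG and 0.798, 0.809 and 0.873 with vehicle, without overlap. Replicate 3 of 2DG and replicate 3 of vehicle were close. Stat5a was thus above Stat5b in replicates 1 and 2 with 2DG, and below it in 2DG replicate 3 and in all 3 vehicle libraries. Their sum was 126, 148 and 107 FPKM with 2DG and 108, 130.3 and 118 FPKM with vehicle, and the groups overlapped.

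All 4 SOCS genes were lower with 2DG in every library than in any vehicle library. Their log2 differences lay between -0.98 and -0.72, with a median of -0.75. Summed over the 4 genes the level was 187, 231 and 175 FPKM with 2DG and 311, 375 and 340.2 FPKM with vehicle, with means of 198 ± 29.4 FPKM with 2DG and 342 ± 31.9 FPKM with vehicle (SD, n = 3 each).

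Socs1, which binds and blocks JAK kinases, had the tightest groups of the 4 relative to their means. It lies on chromosome 16 from 10782240 to 10785536 on the minus strand, with 2 exons, and no 50-base stretch of it occurs in another gene. It was at 75.5, 80.7 and 68.7 FPKM with 2DG and at 131, 121 and 122 FPKM with vehicle. The highest 2DG value was far below the lowest vehicle value, with SDs of 6.04 FPKM with 2DG and 5.36 FPKM with vehicle. The means of 74.98 FPKM with 2DG and 124 FPKM with vehicle give a 1.66-fold lower level with 2DG and a log2 difference of -0.72 ± 0.08. When each library was left out in turn, it lay between -0.78 and -0.66.

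Socs2, best known as a brake on growth hormone signalling, had the largest log2 difference of the 4. It lies on chromosome 10 from 95385362 to 95417180 on the minus strand, with 3 exons. It was at 29.4, 27.4 and 22.1 FPKM with 2DG and at 38.2, 57.4 and 65.3 FPKM with vehicle. The vehicle group was the wider of the pair, with replicate 1 nearest to the 2DG libraries. Means were 26.3 ± 3.73 FPKM with 2DG and 53.6 ± 13.9 FPKM with vehicle (SD, n = 3 each), 2.04-fold lower with 2DG, and the log2 difference was -0.98 ± 0.20. Of its 50-base stretches 18.41% occur in other genes, all of these in Gm9847.

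Socs3, which blocks signalling of IL-6 and related cytokines through their shared receptor chain, lies on chromosome 11 from 117966079 to 117970047 on the minus strand. It was at 53.0, 74.2 and 53.1 FPKM with 2DG and at 81.0, 137 and 97.1 FPKM with vehicle. The groups did not overlap, but 2DG replicate 2 and vehicle replicate 1 were close. Means were 60.1 ± 12.2 FPKM with 2DG and 105 ± 28.8 FPKM with vehicle (SD, n = 3 each), 1.75-fold lower with 2DG, with a log2 difference of -0.78 ± 0.21. In both groups replicate 2 had the highest value, as it had for Il2ra, Il2rb, Stat5a and Stat5b.

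Cish, a direct STAT5 target whose product also restrains T cell receptor signalling in mice, lies on chromosome 9 from 107296026 to 107302784 on the plus strand, with 3 exons. It was at 29.5, 48.7 and 31.0 FPKM with 2DG and at 61.3, 60.1 and 55.8 FPKM with vehicle. Replicate 2 stood above the other 2DG libraries and was the nearest to the vehicle group, which was narrow. Means were 36.4 ± 10.7 FPKM with 2DG and 59.1 ± 2.89 FPKM with vehicle (SD, n = 3 each), 1.62-fold lower with 2DG, with a log2 difference of -0.72 ± 0.18. Of its 50-base stretches 15.78% occur in other genes, among them Gm17041 on the other strand, and no source used here states whether the counting used strand.

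Set against Stat5b, a gene whose groups overlapped, the SOCS genes gave ratios that did not overlap. Socs1 to Stat5b was 1.26, 1.18 and 1.24 with 2DG and 2.18, 1.67 and 1.94 with vehicle. Cish to Stat5b was 0.494, 0.714 and 0.558 with 2DG and 1.02, 0.834 and 0.888 with vehicle. The same ratio averaged 0.430 ± 0.05 with 2DG and 0.824 ± 0.20 with vehicle for Socs2, and 0.976 ± 0.10 with 2DG and 1.60 ± 0.28 with vehicle for Socs3 (SD, n = 3 each). These ratios are free of any scaling of whole libraries, since both genes are read in the same library.

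**Figure D3:**
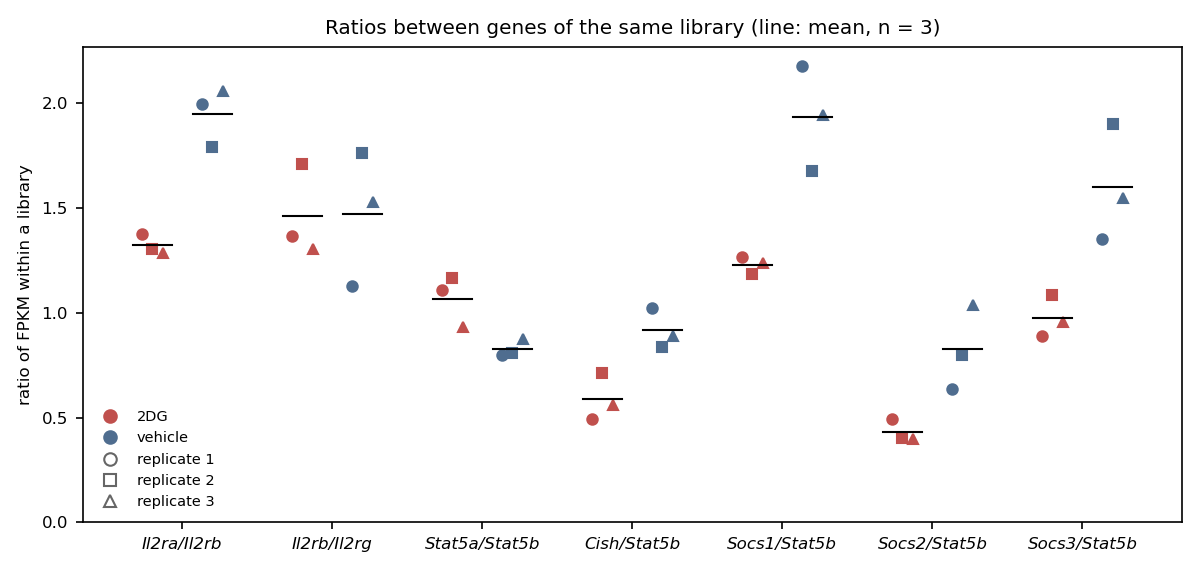
Ratios of FPKM between 2 genes of the same library, with 2DG at the left of vehicle for each ratio, marker shape for the replicate number and a line for the mean (n = 3). The ratio of Il2ra to Il2rb lies at 1.28 to 1.38 with 2DG and at 1.79 to 2.06 with vehicle, that of Stat5a to Stat5b lies higher with 2DG, the ratios of the SOCS genes to Stat5b lie lower with 2DG, and that of Il2rb to Il2rg overlaps.

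By level, the 3 receptor chains headed the 10 genes in all 6 libraries, at percentiles 97.3 (Il2ra), 96.3 (Il2rb) and 93.9 (Il2rg) of the tested loci with 2DG and at 98, 96.4 and 94.3 with vehicle. With 2DG they were followed by Il2 and then by Socs1, Stat5a, Stat5b and Socs3, whose means lay between 60.1 and 74.98 FPKM and differed from their neighbours by less than the larger SD. Cish and Socs2 came last with 2DG, at percentiles 75.6 and 67.3, and their means also differed by less than the SD of Cish. With vehicle, Socs1 and Socs3 followed the chains, at percentiles 93.4 and 91.8, and differed by less than the SD of Socs3. Stat5b, Cish, Stat5a and Socs2 then lay between 53.6 and 64.9 FPKM with vehicle, each within the larger SD of its neighbour except that Cish and Stat5a differed by slightly more, and Il2 was last.

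The pattern of levels over the 6 libraries was compared with 9158 other tested genes by Pearson's r on the log2 scale, as a description. For Il2ra the most alike were Gapvd1 (r = 0.9971), Procr (r = 0.9931), which encodes the endothelial protein C receptor, and Timp1 (r = 0.9919), an inhibitor of matrix proteases, and 122 genes had r over 0.95. Gapvd1 averaged 34.0 FPKM with 2DG and 37.8 FPKM with vehicle, a log2 difference of only -0.15. Procr averaged 3.75 FPKM with 2DG and 17.3 FPKM with vehicle, and Timp1 averaged 95.6 FPKM with 2DG and 269 FPKM with vehicle. A high r thus did not mean a difference of like size. For Stat5a the most alike were Sfswap (r = 0.9947), Ptch1 (r = 0.9899) and Zfp760 (r = 0.9852), with 38 genes over 0.95. For Cish they were Mrps34 (r = 0.9957), Igf1r (r = 0.9945) and Actn1 (r = 0.9858), with 46 genes over 0.95. All points share the same 6 libraries, and the group difference enters each r.

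The genes around the pathway were taken from 10 lists, whose choice was also made with earlier results of these data known. Of their genes outside the 10, 83 were tested, and 3 rose and 3 fell with 2DG (7.23%; limma, adjusted p under 0.05 over all loci). By the same threshold 1.53% of all tested loci were higher and 1.19% lower. Since the lists were chosen with results known, nothing is read from these shares. None of the 4 other SOCS genes, 4 listed STAT genes, 10 other inhibitors of JAK and STAT signalling, 7 receptor adaptors and PI3-kinase genes, 9 activators of Il2 and 6 genes of the common gamma chain family passed limma's threshold. At unadjusted p under 0.05, Pias1 was higher among the inhibitors, 5 activators were higher, and Il4ra and Il7r were lower in the gamma chain family, while the SOCS, STAT and adaptor lists had 0. Of all tested loci, 9.07% were higher and 8.82% lower at that limit.

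The other SOCS genes had a median log2 difference of 0.03, beside the median of -0.75 for Cish and Socs1 to Socs3. Their smallest p-values belonged to Socs6, at -0.19 (adjusted p = 0.447), and Socs4, at 0.16 (adjusted p = 0.559). The 10 other inhibitors had a median of 0.09, and Pias1 (0.24, adjusted p = 0.246) and Ptpn2 (0.17, adjusted p = 0.371), a phosphatase of STAT5 and JAK1, had the smallest p-values. Of the adaptors and PI3-kinase genes, with a median of -0.14, these were Pik3cd (-0.23, adjusted p = 0.357) and Pik3r1 (-0.14, adjusted p = 0.455). The adjusted p-values are from limma with Benjamini-Hochberg adjustment.

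Among the kinases, Jak2 rose. Jak2, a kinase that serves the IL-23 receptor rather than the IL-2 receptor, averaged 105 ± 5.91 FPKM with 2DG and 76.6 ± 1.43 FPKM with vehicle (log2 difference 0.45 ± 0.07, limma adjusted p = 0.0267). It lost the threshold without each single library, with adjusted p up to 0.112. Jak3, the kinase bound to the gamma chain, shares its locus with Insl3, and that locus averaged 89.2 ± 13.6 FPKM with 2DG and 89.0 ± 6.32 FPKM with vehicle (limma adjusted p = 0.99). The 4 listed STAT genes had a median log2 difference of -0.08, and Stat4 and Stat3 had the smallest p-values. Stat3, the factor of IL-6 and IL-23 signalling, averaged 172 ± 26.4 FPKM with 2DG and 160.2 ± 35.7 FPKM with vehicle (0.11 ± 0.18, limma adjusted p = 0.798), and Stat4 averaged 12.3 ± 5.69 FPKM with 2DG and 16.2 ± 5.90 FPKM with vehicle (-0.40 ± 0.33, limma adjusted p = 0.579).

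Of the common gamma chain family, with a median log2 difference of -0.50 over 6 genes, Il4ra and Il7r had the smallest p-values. Il4ra, the IL-4 receptor alpha chain, averaged 96.9 ± 12.1 FPKM with 2DG and 161 ± 37.5 FPKM with vehicle (-0.71 ± 0.17, limma adjusted p = 0.0862). Il7r, the IL-7 receptor alpha chain, averaged 5.18 ± 1.66 FPKM with 2DG and 11.3 ± 5.57 FPKM with vehicle (-0.93 ± 0.33, limma adjusted p = 0.202). Il15ra, 12.1 kb from Il2ra, averaged 0.891 ± 0.42 FPKM with 2DG and 0.949 ± 0.51 FPKM with vehicle and was below the level required for testing.

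Among the regulators of Il2, Crem fell with 2DG. Crem, whose repressor forms are known to bind the Il2 promoter in T cells, was at 14.9, 17.9 and 33.4 FPKM with 2DG and at 149, 96.6 and 91.2 FPKM with vehicle. That is 5.09-fold lower with 2DG and a log2 difference of -2.34 ± 0.31 (limma adjusted p = 0.0163), and the groups were far apart. The call was lost without 2DG replicate 1 or 2 (limma adjusted p = 0.0677 and 0.0728) and without vehicle replicate 1 or 2 (limma adjusted p = 0.0514 and 0.0593), with log2 differences of -2.67 to -2.12 over the refits that left out 1 library. Of the 9 activators, with a median of 0.20, Nfatc1 averaged 18.8 FPKM with 2DG and 14.6 FPKM with vehicle (0.34 ± 0.08, limma adjusted p = 0.0681), and Rela, an NF-kappaB subunit, averaged 33.0 FPKM with 2DG and 26.6 FPKM with vehicle (0.30 ± 0.08, limma adjusted p = 0.109).

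Of 28 tested genes known to be induced by IL-2 and STAT5, 2 fell, 0 rose and 26 did not pass limma's threshold, with a median log2 difference of -0.26. At unadjusted p under 0.05, 13 were lower and 3 were higher, beside 8.82% lower and 9.07% higher of all tested loci. Since the list was chosen with earlier results of these data known, nothing is read from these counts. The 3 higher were Il18r1 (1.21), Ikzf2 (1.01) and Cdk6 (0.23 on the log2 scale), each without overlap, which are named here after their values were seen. Ikzf2 averaged 2.22 FPKM with 2DG and 0.550 FPKM with vehicle. It thus reached the level required for testing only through the 2DG group, and nothing is read from its difference. Pim1, a kinase of cell survival, was at 72.7, 82.6 and 79.7 FPKM with 2DG and at 149, 159 and 148 FPKM with vehicle. Its means were 78.3 ± 5.08 FPKM with 2DG and 152 ± 6.30 FPKM with vehicle (-0.95 ± 0.08, limma adjusted p = 0.00343), and it stayed past the threshold in all 15 alternative settings. Ctla4, an inhibitory receptor, averaged 389 ± 27.9 FPKM with 2DG and 587 ± 30.2 FPKM with vehicle (-0.60 ± 0.09, limma adjusted p = 0.0222). Without each single library Ctla4 lost the threshold, with adjusted p up to 0.0986.

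Of 8 tested genes known to be restrained by IL-2 and STAT5, 2 rose, 0 fell and 6 did not pass limma's threshold, with a median log2 difference of 0.42. At unadjusted p under 0.05, 4 were higher and 1, Il7r, was lower, at -0.93 and without overlap. Of all tested loci, 9.07% were higher and 8.82% lower at that limit, and nothing is read from the counts of this list either. Bcl6, the factor of follicular helper T cells, was at 6.32, 6.65 and 6.85 FPKM with 2DG and at 0.992, 2.30 and 2.28 FPKM with vehicle. The log2 difference was 1.45 ± 0.21 (limma adjusted p = 0.0180), and it lost the threshold without 2DG replicate 1, 2 or 3 (limma adjusted p = 0.0857, 0.0754 and 0.0611). Il17a, the signature cytokine of Th17 cells, averaged 651 ± 69.2 FPKM with 2DG and 252 ± 16.1 FPKM with vehicle (1.36 ± 0.11, limma adjusted p = 0.00315) and stayed past the threshold in all 15 alternative settings. Many genes of both lists also answer to other signals of the culture, such as the T cell receptor, IL-6 and TGFb1.

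**Figure D4:**
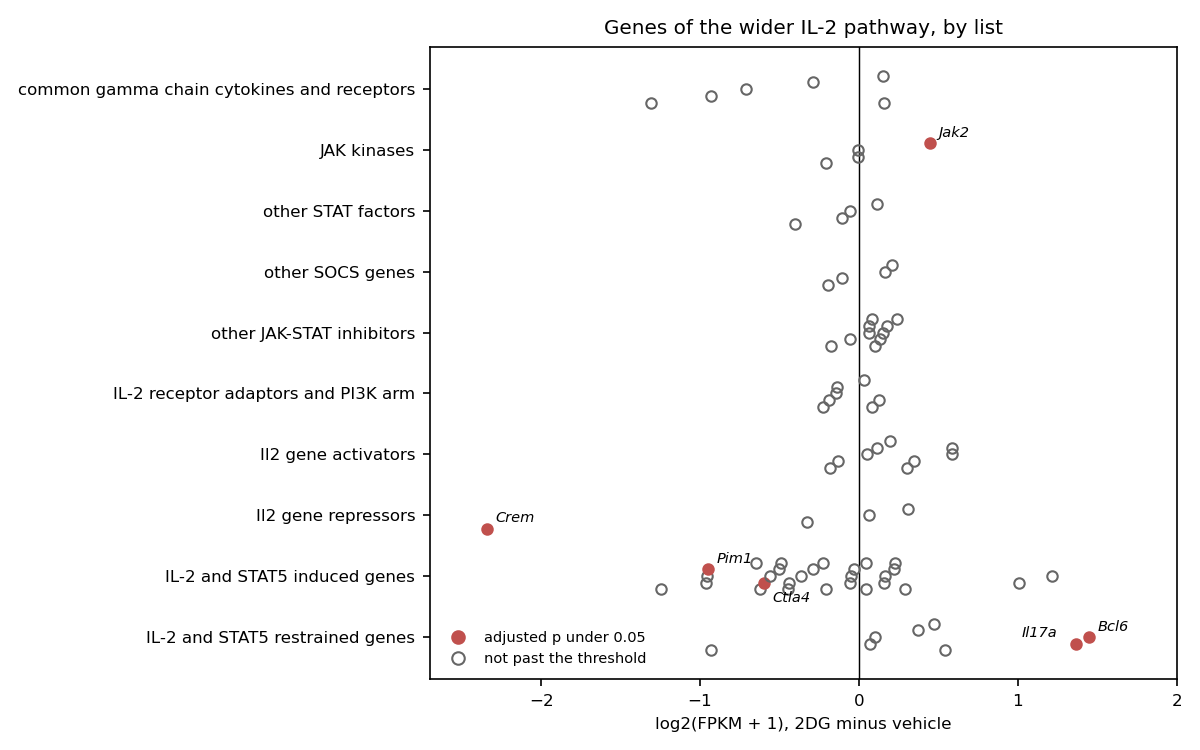
Genes outside the 10, by list, at their difference between 2DG and vehicle (2DG minus vehicle, log2(FPKM + 1), n = 3 libraries in each group). Filled points passed the threshold (limma, adjusted p under 0.05 over all loci) and open points did not, and the vertical offset within a list only separates points. The 3 genes that rose are Jak2, Bcl6 and Il17a and the 3 that fell are Crem, Pim1 and Ctla4.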

How the data were processed

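RNA of 3 libraries with 2DG and 3 with vehicle was sequenced. Per the submitters' processing notes, the mm10 build was used, with Cuffdiff 2.2.1.3 and Cuffnorm 2.2.1.1 besides Cufflinks 2.2.1.0 and TopHat2 2.1.0. Settings, annotation and strand use were not given in the sources used here. What the authors deposited is an FPKM value for each locus in each library (unit and columns per the file headers). The 75th percentiles of the libraries were close, at 10.9 to 11.6 FPKM, but how the libraries were scaled was not given. FPKM are estimates, so genes that share sequence are uncertain.

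Because a count test cannot be run on FPKM, limma 3.58.1 in R 4.3.3 (lmFit, eBayes with trend) was fitted to log2(FPKM + 1) of those 10228 loci whose 6 libraries averaged 1 FPKM or more, with group as the only term. P-values were two-sided, adjusted by Benjamini-Hochberg over all these loci, with a threshold of 0.05. The pseudocount of 1 understates differences of low genes. An exact permutation test of 1 gene with 3 against 3 libraries cannot go below p = 0.1. The code was tested on simulated data. No pair of libraries had identical values in more than 0.479% of loci.

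The 10 genes, the lists and the tests were chosen with earlier results of these data known. Some items of the lists are not reported here. Genes named by rule are the 10, every gene of the 10 wider lists past the threshold and the 2 of smallest p in a list with none. Also named are neighbours, genes that share sequence and the 3 most alike to Il2ra, Stat5a and Cish, leaving out predicted genes, small RNAs and immune receptor segments. Cell type markers were outside this rule, and not every marker past the threshold is named. Gene coordinates come from GENCODE M21 on GRCm38, and promoters from RefSeq on GRCm38.p6, which held an entry for 8 of the 10. The 15 alternatives change the pseudocount, filter, scaling, variance model, block or libraries. Python 3.11.15 and matplotlib 3.10.9 made the figures.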

Additional observations from a re-analysis of the deposited data

How the results depend on the processing

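For the 10 pathway genes, 15 alternative settings gave 150 log2 differences, and 0 of them moved by more than the spread between replicates. Most of this result was fixed in advance. Changes of filter, variance model or block leave the difference as it was, and leaving out 1 of 3 libraries cannot shift it that far. Only changes of pseudocount and scaling could have moved it, so little is read from the 0. The direction held for 9 of the 10 genes; Il2rb, near 0 in the main fit, was at 0.05 without vehicle replicate 2. Il2 ranged from 1.26 to 1.93, Socs1 from -0.78 to -0.66, Socs2 from -1.20 to -0.82, Socs3 from -0.95 to -0.57 and Cish from -0.94 to -0.59. Calls depended more on the setting. The 2 of the 10 genes past the threshold as lower became 1 with no filter and 1 with quantile normalization, 3 with robust fitting and 3 over loci of status OK only, and ranged from 0 to 2 when 1 library was left out, with 0 without 2DG replicate 1 and 1 without 2DG replicate 3, vehicle replicate 2 or vehicle replicate 3. Il2ra was not past the threshold with no filter, with quantile normalization, with a replicate block or when any 1 library was left out. The count past the threshold as higher was 0 in the main fit and whichever library was left out, and 1, Il2, over loci of status OK only.

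Over all loci, the counts of 156 higher and 122 lower became 100 and 65 when the filter was dropped, 247 and 199 under robust fitting, and 37 to 87 higher and 14 to 55 lower when 1 library was left out. The wider genes past the threshold ranged from 1 to 2, both higher and lower, when 1 library was left out. Stat3, at 0.11 in the main fit, ranged from -0.057 without vehicle replicate 1 to 0.27 without vehicle replicate 2. Whether equal replicate numbers pair the libraries is not stated in the labels. Deviations from the group means correlated between same-numbered libraries at r of -0.05, 0.19 and -0.11 for replicates 1, 2 and 3, and not every library correlated best with its own number. With a replicate block, 57 loci were higher and 44 lower, and 2 of the 10 genes were past the threshold, Socs1 and Socs3. With the block, limma's call was lost for Il2ra (adjusted p = 0.0543). It was also lost for Jak2, Crem and Ctla4 (adjusted p = 0.0651, 0.0624 and 0.0645) and gained for Il4ra (adjusted p = 0.0449). The causes of these shifts were not tested. Depth is unknown, and with 3 libraries in each group a difference that missed the threshold is not shown to be absent.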
